A study of Homo sapiens with 4 samples.

Results

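The 10 genes described here make the sliding clamp of DNA replication, load and unload it, and finish the lagging strand. They are PCNA, RFC1, RFC2, RFC3, RFC4, RFC5, CHTF18, ATAD5, FEN1 and LIG1, chosen by gene name from 58735 genes in the tables. All 10 names matched 1 gene each, and all 10 had a mean of at least 1 FPKM, the level needed to be tested. The cells were 769-P, an established line of human clear cell kidney carcinoma, with a stably transfected short hairpin RNA against the deubiquitylating enzyme USP35 that doxycycline induces. There were 2 doxycycline libraries (1 µg/ml for 4 days) and 2 untreated libraries. Every library carried the hairpin construct and was grown with puromycin, and doxycycline without the hairpin was not analysed here. The comparison asks which transcripts differ once the hairpin is induced.

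PCNA is a ring that slides along DNA and tethers the replicative polymerases and many other proteins to it. Replication factor C, built from the large subunit RFC1 and the small subunits RFC2 to RFC5, opens the ring and closes it around primed DNA. In related complexes the same small subunits join another large subunit. CHTF18 gives a loader linked to sister chromatid cohesion, ATAD5 gives a complex that takes PCNA off DNA, and RAD17 gives the loader of the checkpoint clamp RAD9A-HUS1-RAD1. On the lagging strand FEN1 trims the flap of each Okazaki fragment and LIG1 seals the nick that remains. Dividing cells use these genes in S phase, and many S-phase genes are controlled by E2F transcription factors.

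Recovered depth was 17481827 and 18764546 reads in doxycycline replicates 1 and 2 and 16319640 and 17244546 reads in untreated replicates 1 and 2. Reads of the 10 genes ran from 90 to 4928 per library. USP35 stood at 2.11 and 2.54 FPKM in the doxycycline libraries, against 3.31 and 4.19 FPKM in the untreated libraries, and did not pass the test (limma adjusted p = 0.256). Mitochondrially encoded genes held 7.44% and 14.6% of reads in doxycycline replicates 1 and 2 and 8.21% and 8.504% in the untreated libraries, so doxycycline replicate 2 stood apart in this measure. Of 7 markers of kidney tubule and clear cell carcinoma, 6 had a mean of at least 1 FPKM, among them PAX8 and PAX2, while CA9, a hypoxia-regulated carbonic anhydrase, had 0 or 1 read in each library. The 7 summed to 568 and 542 FPKM with doxycycline and 762 and 635 FPKM untreated. Most of each sum was VIM, at 351 and 328 FPKM with doxycycline against 502 and 380 FPKM untreated. VIM, KRT8 and KRT18 were lower in both doxycycline libraries. PAX2 was higher in both, at 5.94 and 6.15 FPKM against 4.78 and 5.31 FPKM untreated, and PAX8, CDH2 and CA9 overlapped. The part of these marker differences in the results below was not tested. No leukocyte, endothelial or fibroblast marker of 3 each reached a mean of 1 FPKM.

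Promoters of the genes are shown with the words that E2F is known to bind in S-phase genes, as a description of their sequence. The RefSeq table (GRCh38.p14) held a promoter for 9 of the 10 genes, all but ATAD5, each reaching from 250 bases before the start site to 50 bases after it. Both strands were searched for E2F-like words, spelled TTCGCGC as the first form, TTGGCGC as the next form, TTCCCGC as a further form or TTGCCGC as the last form. The other motifs were the CHR element, spelled TTTGAA as the first form or TTCGAA as the other form, and CCAAT. An E2F-like word lay in 7 of 9 promoters, against 13.0% of all 35116 promoters in the table and 20.0% of 12042 promoters of the protein-coding genes tested. A CCAAT word lay in 4 of 9, against 34.6% of all promoters and 35.1% of those of the protein-coding genes tested. A CHR word lay in 0 of 9, against 16.4% and 11.4%. The 5 promoters below are those of the clamp, of the large loader subunit whose level did not separate the groups, of a small subunit, and of the 2 finishing enzymes. Capitals mark the E2F-like and CCAAT words, a word on the opposite strand appears as its reverse complement, and in RFC1 2 overlapping E2F-like words form 1 run. Each is written on the strand of its gene, and the starts are those of RefSeq.
PCNA, chr20:5126573-5126872, minus strand: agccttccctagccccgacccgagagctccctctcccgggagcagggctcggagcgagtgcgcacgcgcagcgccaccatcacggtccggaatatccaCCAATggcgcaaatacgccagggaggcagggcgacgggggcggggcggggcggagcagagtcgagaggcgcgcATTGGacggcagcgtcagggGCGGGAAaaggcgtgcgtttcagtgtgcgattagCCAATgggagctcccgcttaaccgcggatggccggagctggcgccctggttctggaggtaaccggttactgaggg
RFC1, chr4:39366313-39366612, minus strand: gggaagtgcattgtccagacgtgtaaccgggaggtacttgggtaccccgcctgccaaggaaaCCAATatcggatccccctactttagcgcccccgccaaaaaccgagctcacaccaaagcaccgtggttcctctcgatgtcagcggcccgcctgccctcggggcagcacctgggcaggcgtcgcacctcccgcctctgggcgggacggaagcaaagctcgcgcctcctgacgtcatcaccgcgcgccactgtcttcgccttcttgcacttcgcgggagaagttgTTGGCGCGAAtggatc
RFC3, chr13:33817899-33818198, plus strand: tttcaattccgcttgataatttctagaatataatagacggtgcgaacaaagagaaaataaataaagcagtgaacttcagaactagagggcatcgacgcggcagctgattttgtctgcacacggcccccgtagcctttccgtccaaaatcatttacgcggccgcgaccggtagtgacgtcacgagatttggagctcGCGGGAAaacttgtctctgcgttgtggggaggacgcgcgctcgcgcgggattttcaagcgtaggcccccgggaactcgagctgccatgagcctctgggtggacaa
FEN1, chr11:61792661-61792960, plus strand: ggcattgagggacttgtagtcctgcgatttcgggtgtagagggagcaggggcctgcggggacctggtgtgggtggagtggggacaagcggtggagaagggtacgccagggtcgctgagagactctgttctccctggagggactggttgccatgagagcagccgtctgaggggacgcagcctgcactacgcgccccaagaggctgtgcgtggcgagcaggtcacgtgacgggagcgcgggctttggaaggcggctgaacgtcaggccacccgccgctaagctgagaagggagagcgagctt
LIG1, chr19:48170295-48170594, minus strand: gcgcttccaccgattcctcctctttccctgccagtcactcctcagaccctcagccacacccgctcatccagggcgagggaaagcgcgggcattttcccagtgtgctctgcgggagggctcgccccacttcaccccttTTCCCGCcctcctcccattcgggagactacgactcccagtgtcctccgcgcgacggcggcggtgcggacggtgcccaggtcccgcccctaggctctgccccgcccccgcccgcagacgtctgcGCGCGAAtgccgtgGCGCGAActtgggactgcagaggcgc

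PCNA and RFC3 held 1 E2F-like word each, with its first base at -59 and -55 relative to the start, both as TTCCCGC on the strand opposite to the gene. LIG1 held 3 such words, at -113, 11 and 25. RFC1 held 2 E2F-like words, while FEN1 and CHTF18 held none. RFC2 and RFC5 held 1 each and RFC4 held 2. A match shows only that these letters stand in the window, and the relation of the words to the differences between the groups was not tested. RFC5 is the gene whose RefSeq start lay farthest from the gene start in the tables, 3115 bases.

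Transcripts of the clamp were lower in both doxycycline libraries, at about the same level. PCNA (ENSG00000132646, GRCh38 chromosome 20, 5114953 to 5126626, minus strand) stood at 92.7 and 84.97 FPKM in doxycycline replicates 1 and 2, against 211 and 166 FPKM in untreated replicates 1 and 2. Both doxycycline libraries lay below both untreated libraries, and the untreated pair was the more spread of the groups. The means were 88.8 ± 5.48 FPKM with doxycycline and 188 ± 32.1 FPKM untreated (SD, n = 2 each), a ratio of 0.471. The log2(FPKM + 1) difference of -1.07 (standard error 0.24) missed the threshold of 0.05 (limma adjusted p = 0.115). PCNA was the most abundant of the 10 transcripts in every library and rested on 2564 and 2289 reads with doxycycline and 4928 and 4246 reads untreated. In bulk RNA, fewer cells in S phase and less RNA in each cell cannot be told apart, here and for every gene below.

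**Figure D1:**
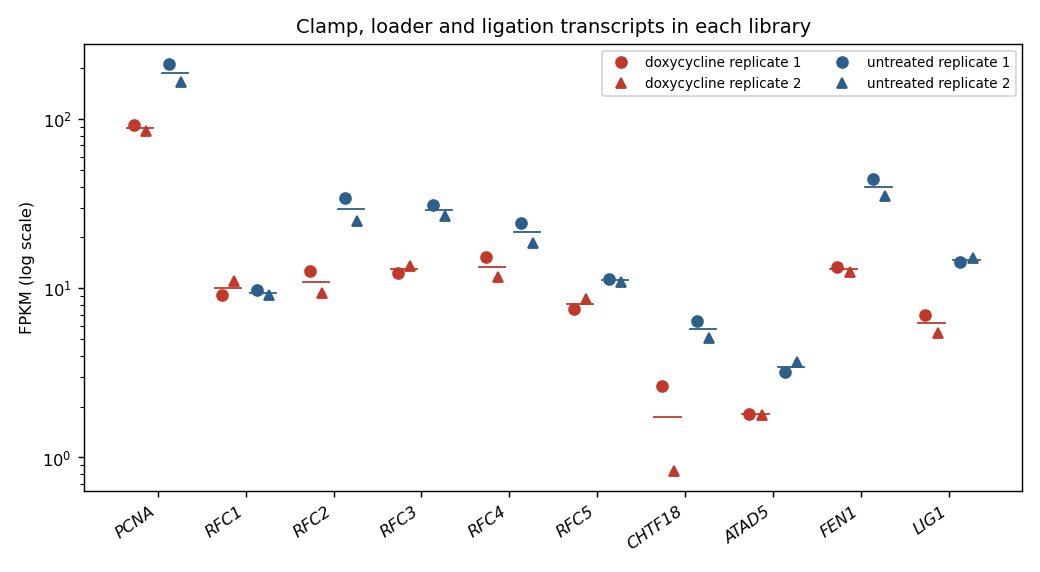
FPKM of the 10 genes on a log axis, with 1 point per library (circles replicate 1, triangles replicate 2), doxycycline in red to the left of untreated in blue, and a line at each group's mean. Only for RFC1 do the groups overlap, at 9.14 and 11.004 FPKM with doxycycline and 9.80 and 9.08 FPKM untreated, and CHTF18 shows the widest gap between the doxycycline libraries.

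Among the loader's small subunits, RFC2 and RFC3 differed more between the groups than RFC4 and RFC5. RFC2 (ENSG00000049541, chromosome 7, 74231499 to 74254458, minus strand) stood at 12.6 and 9.34 FPKM with doxycycline, against 34.2 and 25.1 FPKM untreated. RFC3 (ENSG00000133119, chromosome 13, 33818049 to 33966558, plus strand) stood at 12.4 and 13.6 FPKM with doxycycline, against 31.1 and 26.8 FPKM untreated. In both genes the highest doxycycline library was far below the lowest untreated library. Their ratios of means were 0.370 and 0.449, with log2 differences of -1.35 (standard error 0.25) and -1.10 (standard error 0.20). Neither passed the test, with limma adjusted p = 0.0763 for RFC2 and 0.0737 for RFC3.

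RFC4 and RFC5 showed smaller gaps. RFC4 (ENSG00000163918, chromosome 3, 186789880 to 186807058, minus strand) stood at 15.2 and 11.6 FPKM with doxycycline, against 24.3 and 18.5 FPKM untreated. RFC5 (ENSG00000111445, chromosome 12, 118013588 to 118033130, plus strand) stood at 7.60 and 8.60 FPKM with doxycycline, against 11.4 and 10.9 FPKM untreated. The groups did not overlap in either gene, but the step between doxycycline replicate 1 and untreated replicate 2 was small for RFC4. The ratios were 0.627 and 0.727, and the log2 differences of -0.64 (standard error 0.24) and -0.42 (standard error 0.18) did not pass (limma adjusted p = 0.243 and 0.289). For RFC5, 10.6% of its exon length is shared with genes on the other strand, among them WSB2, at 25.5 and 33.6 FPKM with doxycycline and 22.7 and 21.5 FPKM untreated. Whether the counting used strand was not given in the sources used here, so reads of such overlapping stretches cannot be told apart.

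RFC1, the large subunit that completes the loader, did not separate the groups. RFC1 (ENSG00000035928, chromosome 4, 39287456 to 39366375, minus strand) stood at 9.14 and 11.004 FPKM with doxycycline, against 9.80 and 9.08 FPKM untreated, with overlapping groups. Its log2 difference was 0.08 with a 95% interval from -0.38 to 0.54 (limma adjusted p = 0.844), and it changed sign, to -0.040, without doxycycline replicate 2. The small subunits were less abundant relative to RFC1 within the doxycycline libraries. The mean of RFC2 to RFC5 was 1.31 and 0.980 times RFC1 in doxycycline replicates 1 and 2, against 2.57 and 2.24 times in untreated replicates 1 and 2, all in FPKM. RFC3 was 1.35 and 1.24 times RFC1 with doxycycline and 3.17 and 2.95 times untreated, and RFC5 0.831 and 0.782 times with doxycycline and 1.16 and 1.1995 times untreated. None of these ratios overlapped between the groups, and an exact two-sided permutation test of 2 against 2 libraries cannot go below p = 0.333. By FPKM on exon length the small subunits were also closer to each other with doxycycline, the highest being 2.00 and 1.58 times the lowest in those libraries and 2.999 and 2.46 times in the untreated libraries. This depended on the length used. On each gene's GENCODE transcript with the longest coding sequence, RFC4 was highest, at 31.5 and 24.0 FPKM with doxycycline and 50.2 and 38.3 FPKM untreated. The lowest was RFC3 at 14.8 FPKM in doxycycline replicate 1 and RFC2 at 12.2 FPKM in replicate 2. Untreated it was RFC5, at 22.4 and 21.4 FPKM. On these lengths the ratios of highest to lowest overlapped between the groups.

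The large subunits that share this core did not all stand on the same side. CHTF18 (ENSG00000127586, chromosome 16, 788046 to 800737, plus strand) stood at 2.66 and 0.831 FPKM with doxycycline, against 6.40 and 5.11 FPKM untreated. These values rested on 296 and 90 reads with doxycycline and 601 and 527 reads untreated. Both doxycycline libraries were below both untreated ones, and replicate 2, the library with the high mitochondrial share, was far below replicate 1. The fitted log2 difference was -1.38 (standard error 0.35, limma adjusted p = 0.135). It was -1.88 without doxycycline replicate 1, -0.88 without doxycycline replicate 2 and -1.35 when mitochondrially encoded genes were left out of the scaling. CHTF18 shares 5.66% of its exon length with genes on the other strand, of which RPUSD1 stood at 13.6 and 6.98 FPKM with doxycycline and 22.3 and 18.6 FPKM untreated. The part of the mitochondrial share and of these overlaps in the result was not tested.

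ATAD5, which gives the unloading complex, was lower by nearly the same amount in both doxycycline libraries. ATAD5 (ENSG00000176208, chromosome 17, 30831970 to 30895869, plus strand) stood at 1.81 and 1.78 FPKM with doxycycline, against 3.22 and 3.66 FPKM untreated, without overlap. The ratio was 0.523 and the log2 difference -0.66 (standard error 0.18, limma adjusted p = 0.161). RAD17, from the further list of loaders and the checkpoint clamp, was the large subunit that stood higher, at 10.7 and 11.2 FPKM with doxycycline against 7.68 and 6.32 FPKM untreated. Its log2 difference of 0.58 (standard error 0.19) did not pass either (limma adjusted p = 0.197), and 9.14% of its exon length is shared with genes on the other strand, TAF9 among them.

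The large subunits RFC1, RAD17, CHTF18 and ATAD5 summed to 24.3 and 24.8 FPKM with doxycycline and 27.1 and 24.2 FPKM untreated. The groups overlapped in this sum on exon length, and this too depended on the length used. On the transcript lengths above, both untreated sums lay above both doxycycline sums, the nearest of them only narrowly. RAD17 held 43.9% and 45.2% of the sum on exon length with doxycycline, against 28.3% and 26.2% untreated. CHTF18 held 10.965% and 3.34% with doxycycline, against 23.6% and 21.2% untreated, and ATAD5 held 7.47% and 7.18% with doxycycline, against 11.9% and 15.1% untreated. The share of RFC1 was 37.7% and 44.3% with doxycycline and 36.2% and 37.5% untreated. The sum of the small subunits RFC2 to RFC5 was 47.8 and 43.2 FPKM with doxycycline, against 100.95 and 81.3 FPKM untreated. The groups did not overlap in the sum of the small subunits.

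**Figure D2:**
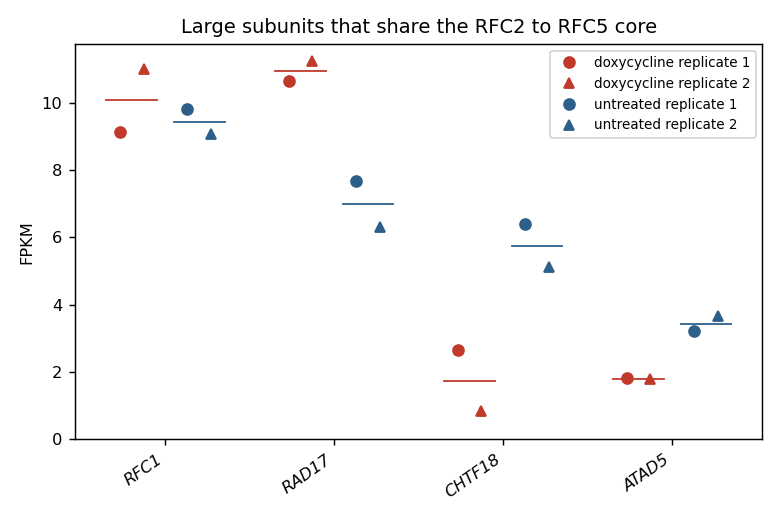
FPKM of the 4 large subunits that share RFC2 to RFC5, on a linear axis from 0, with 1 point per library, doxycycline in red to the left of untreated in blue, and a line at each group's mean. RAD17 is higher in both doxycycline libraries (10.7 and 11.2 FPKM with doxycycline against 7.68 and 6.32 FPKM untreated), CHTF18 and ATAD5 are lower in both, and RFC1 overlaps.

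FEN1 and LIG1, which finish Okazaki fragments, were both lower with doxycycline, FEN1 more so. FEN1 (ENSG00000168496, chromosome 11, 61792637 to 61797244, plus strand) stood at 13.4 and 12.6 FPKM with doxycycline, against 44.2 and 35.1 FPKM untreated. LIG1 (ENSG00000105486, chromosome 19, 48115445 to 48170603, minus strand) stood at 6.92 and 5.47 FPKM with doxycycline, against 14.4 and 15.0 FPKM untreated. In both genes the groups were well apart, and the doxycycline libraries of FEN1 were close together. The means of FEN1 were 12.96 ± 0.56 FPKM with doxycycline and 39.6 ± 6.39 FPKM untreated (SD, n = 2 each), a ratio of 0.327, and those of LIG1 were 6.20 ± 1.03 FPKM with doxycycline and 14.7 ± 0.47 FPKM untreated, a ratio of 0.422. FEN1 had a log2 difference of -1.53 (standard error 0.21, limma adjusted p = 0.0573) and LIG1 of -1.13 (standard error 0.19, limma adjusted p = 0.0696). The limma adjusted p of FEN1 was the lowest reached by any gene tested, but it was a tie. EXO1, DTL and PCLAF, described below, were among the genes with the same value. Of all 12029 genes tested, 90 had a log2 difference at or below that of FEN1.

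FEN1 shares 8.68% of its exon length with other genes, mainly TMEM258 on the other strand, at 11.7 and 9.02 FPKM with doxycycline and 17.8 and 13.1 FPKM untreated. PCNA stood higher relative to FEN1, the nuclease that it holds at the flap, in the doxycycline libraries. PCNA was 6.94 and 6.76 times FEN1 in the doxycycline libraries, against 4.78 and 4.72 times in the untreated libraries, in FPKM. By contrast, PCNA was 7.76 and 7.88 times the mean of the small loader subunits with doxycycline and 8.37 and 8.16 times untreated, a narrower gap that also did not overlap.

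Over the 10 genes, 9 had both doxycycline libraries below both untreated libraries, 0 had both above and 1, RFC1, overlapped. Among all genes tested 28.9% were below in this way and 24.3% above. The median log2 difference of the 10 genes was -1.08, against -0.03 over all genes tested, and 2.98% of genes tested had a difference at or below that median. With limma the adjusted p of 0 of the 10 genes was under 0.05, as for 0% of all genes, while the unadjusted p of 8 was under 0.05, all lower, against 11.9% of genes tested. The unadjusted p was under 0.05 for 0 higher genes of the 10, against 6.47%. RFC1 and RFC5 were the genes at or above it. With limma-voom on recovered reads the number past the adjusted threshold was 0 with library totals and 2 with median-of-ratios sizes (FEN1 and LIG1), where 1.65% of all genes passed. Over protein-coding genes alone 4 passed (FEN1, LIG1, RFC2 and RFC3), against 2.37% of those genes. Without doxycycline replicate 1 the number was 8, against 32.8% of all genes. It was 7 without doxycycline replicate 2, against 13.3% of all genes, and 0 without either untreated library, where 0 of all genes passed.

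**Figure D3:**
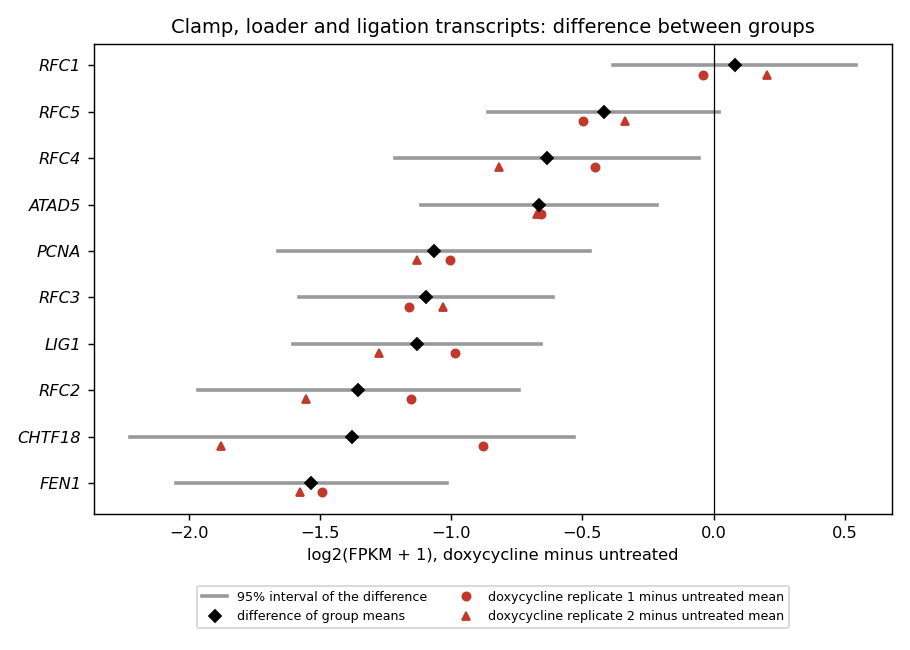
Log2(FPKM + 1) difference, doxycycline minus untreated, for each of the 10 genes (diamonds) with its 95% interval from limma, and the same for each doxycycline library minus the untreated mean (red circles and triangles). The interval spans 0 for RFC1 and RFC5, and the doxycycline libraries lie close together for FEN1 and ATAD5 and far apart for CHTF18.

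**Figure D4:**
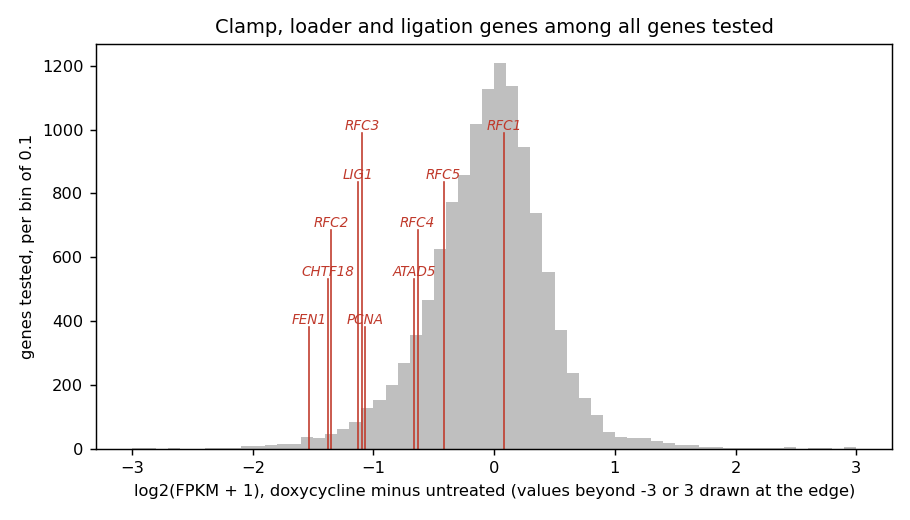
Histogram of the log2(FPKM + 1) differences of all 12029 genes tested, with a red line at each of the 10 genes (line heights differ only to part the names). The median of all genes is -0.03, and 9 of the 10 lines lie below it, from RFC5 at -0.42 to FEN1 at -1.53.

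Agreement between libraries differed from gene to gene. Of the 10 genes, 7 were lower in doxycycline replicate 2 than in replicate 1, and the others, RFC1, RFC3 and RFC5, were higher in it. Replicate 1 exceeded replicate 2 by a factor of 3.20 for CHTF18, 1.35 for RFC2 and 1.31 for RFC4, against 1.02 for ATAD5 and 1.06 for FEN1. Among the untreated libraries 8 of the 10 genes were higher in replicate 1, with the widest factor, 1.36, for RFC2, while LIG1 and ATAD5 were higher in replicate 2.

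Order of level was nearly the same in both untreated libraries. By FPKM on the exon length in the tables, PCNA led, then FEN1, RFC2 and RFC3 (in either order), RFC4, LIG1, RFC5, RFC1, CHTF18 and ATAD5. With doxycycline PCNA still led, while RFC1 moved up to rank 6 in replicate 1 and rank 5 in replicate 2 and LIG1 stood at rank 8 in both. RFC2 and RFC3 were the only neighbours in the untreated order whose ranges overlapped. In the doxycycline libraries RFC1, RFC2, RFC3, RFC4 and FEN1 lay between 9.14 and 15.2 FPKM, where RFC1 overlapped RFC2 but neither FEN1, RFC3 nor RFC4. The exon length of RFC4 is 2997 bases, 2.07 times its GENCODE transcript with the longest coding sequence, and on that transcript length RFC4 ranked second in all 4 libraries. On such transcript lengths RFC1 stood at rank 8 in both untreated libraries and in doxycycline replicate 1, and at rank 5 in doxycycline replicate 2 alone. LIG1 then stood at rank 7 and rank 8 in doxycycline replicates 1 and 2, against rank 6 in both untreated libraries. That alternative length was chosen after the data were seen.

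The 31 further genes of the pathway were set in 3 lists by their known roles. Of these 30 had a mean of at least 1 FPKM, and 0 passed the limma test over all genes. At an unadjusted p under 0.05 there were 14 lower genes and 2 higher ones of the 30, against 11.9% and 6.47% of all genes tested, and these shares also stand behind the counts of each list below. Both doxycycline libraries were below both untreated ones for 19 of the 30 and above for 8, against 28.9% and 24.3% of all genes tested. The median log2 difference was -0.49.

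In the list of alternative loaders and the checkpoint clamp, 4 of 8 genes were below and 2 above, with a median log2 difference of -0.11 (2 lower and 1 higher at a limma p under 0.05). DSCC1, a partner of CHTF18 in its loader, stood at 8.58 and 7.45 FPKM with doxycycline against 15.6 and 13.3 FPKM untreated (log2 difference -0.77, limma adjusted p = 0.134). The third subunit of that loader, CHTF8, stood at 36.8 and 34.1 FPKM with doxycycline against 40.6 and 41.8 FPKM untreated, a ratio of 0.860 beside 0.303 for CHTF18. CHTF8 was named after its values were seen. Of the checkpoint clamp, RAD9A stood at 4.75 and 2.62 FPKM with doxycycline against 5.88 and 6.40 FPKM untreated (log2 difference -0.65, limma adjusted p = 0.265). That difference was -0.98 without doxycycline replicate 1 and -0.31 without doxycycline replicate 2, while HUS1 and RAD1, also named after their values were seen, overlapped between the groups. WDR48, the cofactor of the enzyme that removes ubiquitin from PCNA, stood higher, at 5.42 and 5.86 FPKM with doxycycline against 4.18 and 4.62 FPKM untreated (log2 difference 0.30, limma adjusted p = 0.402). USP1, the enzyme itself, stood lower, at 17.8 and 16.6 FPKM with doxycycline against 27.5 and 21.1 FPKM untreated (log2 difference -0.46, limma adjusted p = 0.317), and was named after its values were seen.

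In the list of Okazaki fragment processing and nick repair, 7 of 9 tested genes were below and 1 above, with a median log2 difference of -0.57 (5 lower and 0 higher at a limma p under 0.05). EXO1, an exonuclease related to FEN1, stood at 4.64 and 3.90 FPKM with doxycycline against 12.7 and 11.3 FPKM untreated (log2 difference -1.31, limma adjusted p = 0.0573). DNA2, the nuclease and helicase that shortens long flaps, stood at 3.03 and 3.53 FPKM with doxycycline against 6.10 and 6.08 FPKM untreated. RNASEH1, which degrades RNA in RNA-DNA hybrids, stood at 6.09 and 6.33 FPKM with doxycycline against 10.3 and 10.5 FPKM untreated. Their limma adjusted p values were 0.125 and 0.145. LIG4, the ligase of non-homologous end joining, was the gene above, at 9.45 and 12.3 FPKM with doxycycline and 8.88 and 8.36 FPKM untreated (log2 difference 0.29, limma adjusted p = 0.471). The LIG4 difference was 0.46 without doxycycline replicate 1 and 0.12 without doxycycline replicate 2. Of the remaining genes, LIG3, named after its values were seen, overlapped between the groups.

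Of 13 PCNA partners and modifiers, 8 were below and 5 above, and 0 overlapped, with a median log2 difference of -0.74 (7 lower and 1 higher at a limma p under 0.05). DTL, the receptor subunit of the ubiquitin ligase that acts on proteins bound to PCNA, stood at 8.20 and 5.90 FPKM with doxycycline against 22.8 and 21.0 FPKM untreated. PCLAF, a PCNA-binding protein, stood at 3.09 and 4.27 FPKM with doxycycline against 14.1 and 10.7 FPKM untreated. DNMT1, the maintenance DNA methyltransferase that PCNA helps bring to the fork, stood at 11.5 and 9.15 FPKM with doxycycline against 27.0 and 28.6 FPKM untreated. Their log2 differences of -1.52, -1.52 and -1.35 had limma adjusted p values of 0.0573, 0.0573 and 0.0587. PCLAF shares 28.8% of its exon length with another gene on the same strand, which had at most 0.0699 FPKM in any library. CDT1, a replication licensing factor degraded on PCNA and named after its values were seen, stood at 11.6 and 4.501 FPKM with doxycycline against 36.4 and 27.9 FPKM untreated (log2 difference -1.98, limma adjusted p = 0.0893), with its doxycycline libraries far apart as for CHTF18.

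The 5 partners that stood higher were CDKN1A, UBE2A, UBE2B, HLTF and SHPRH. CDKN1A encodes p21, which binds PCNA and inhibits cyclin-dependent kinases, and stood at 287 and 279 FPKM with doxycycline against 137 and 126 FPKM untreated (ratio 2.15, log2 difference 1.10, limma adjusted p = 0.0943). PCNA was 0.323 and 0.305 times CDKN1A in the doxycycline libraries and 1.54 and 1.31 times in the untreated libraries, in FPKM, so the more abundant transcript of this pair was CDKN1A with doxycycline and PCNA without it. The other 4 act in the attachment of ubiquitin to PCNA at damaged forks and had log2 differences from 0.28 to 0.41, with limma adjusted p values from 0.409 to 0.497. These small differences depended on single libraries. Without doxycycline replicate 2 they were 0.083 for HLTF, 0.22 for SHPRH and 0.18 for UBE2A, and without untreated replicate 2 that of UBE2B was 0.16. HLTF stood at 0.55 without doxycycline replicate 1, and SHPRH at 0.72 with a pseudocount of 0.1 and 0.84 with limma-voom on library totals. SHPRH shares 10.1% of its exon length with AL356599.1 on the other strand. That gene stood at 0.54 and 0.64 FPKM with doxycycline and 0.062 and 0.25 FPKM untreated. UBE2A shares 18.1% with NKRF on the other strand, at 3.55 and 4.91 FPKM with doxycycline and 5.32 and 4.15 FPKM untreated. The part of these overlaps was not tested. RAD18, the ligase of the same step, was among the genes below, at a ratio of 0.731, and was named after its values were seen.

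**Figure D5:**
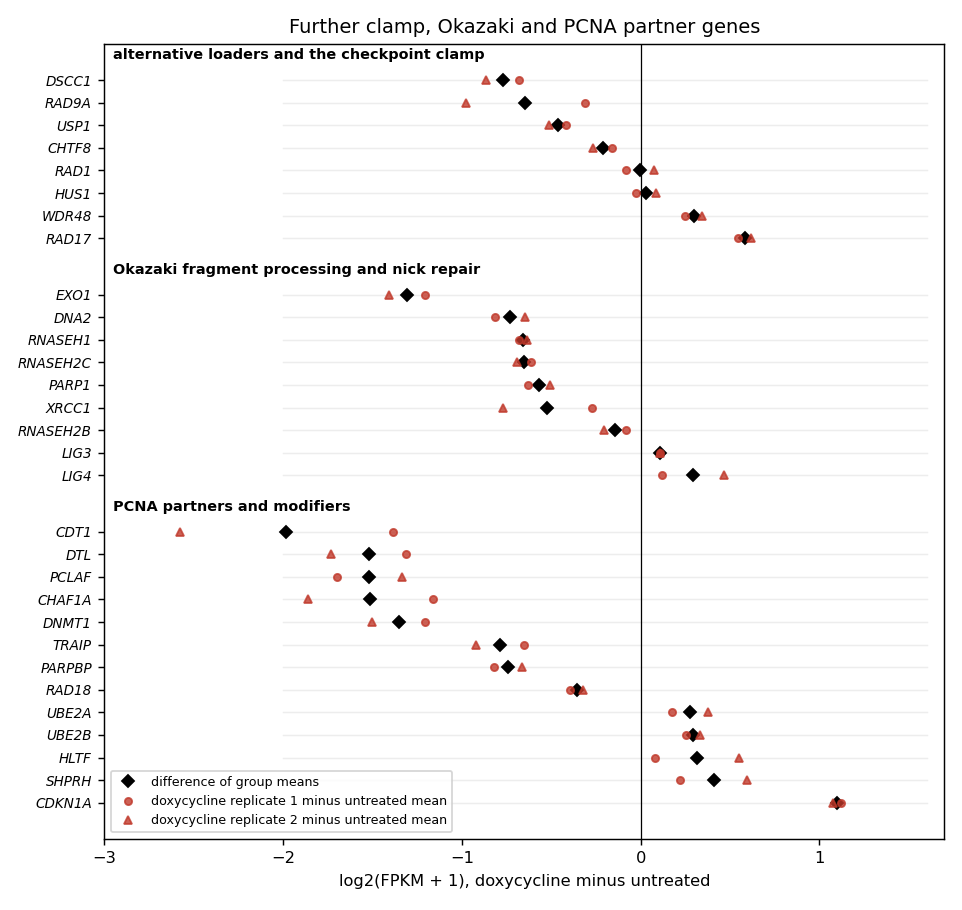
Log2(FPKM + 1) difference, doxycycline minus untreated, for the 30 further genes tested, in 3 lists (diamonds), with each doxycycline library minus the untreated mean (red circles and triangles). The differences run from -1.98 for CDT1 to 1.10 for CDKN1A. Of the 13 PCNA partners, 8 had both doxycycline libraries below both untreated ones and 5 had both above, against 28.9% and 24.3% of all genes tested.

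The genes whose profile over the 4 libraries lay nearest to the mean profile of the 10 genes were GNB1L, PLP2, MISP, HMGN2 and CCNYL1. Likeness was the Euclidean distance between log2(FPKM + 1) profiles centred on their means, from 0.0109 for GNB1L to 0.0582 for CCNYL1, against 0.188 for PCNA and 1.04 for RFC1, the nearest and the farthest of the 10 genes themselves. HMGN2, a nucleosome-binding protein, stood at 42.9 and 38.4 FPKM with doxycycline against 80.4 and 74.2 FPKM untreated. With 4 libraries and 12029 genes, such closeness is a description of these libraries.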

How the data were processed

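RNA of 769-P cells was sequenced in 4 libraries, grouped and numbered by their titles. The authors deposited 1 table per library of FPKM per gene, per the file headers, which is a fragment number over gene length and library size. Per the submitters' processing notes the tools include HISAT2 2.0.5, featureCounts 1.5.0-p3 and limma, with no roles stated. Genome build and strandedness are not given in the sources used here. All 58735 genes matched in identifier and coordinates GENCODE release 29 (GRCh38). No label says whether replicates were separate cultures, and p-values then reflect only the spread between these libraries, possibly technical.

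Whole reads were recovered from FPKM times length (100% of values within 0.02 of a whole number). The library size behind the FPKM was not the sum of these reads. It was 107.5% and 97.6% of that sum in doxycycline replicates 1 and 2 and 97.2% and 101.0% in untreated replicates 1 and 2. Counting limits cover counting error only. The test was limma-trend (limma 3.58.1, R 4.3.3), two-sided, on log2(FPKM + 1), over the 12029 genes averaging 1 FPKM or more. It had 2 residual degrees of freedom and no covariate. Adjustment was by Benjamini-Hochberg over all 12029 genes. The threshold was an adjusted p under 0.05, and differences are doxycycline minus untreated, which the added 1 shrinks for low genes. Fold ratios are of mean FPKM. The steps were run on simulated reads with known changes and a fixed spread. That checks the code, not how the test performs on these libraries. The genes and lists were chosen with earlier results of these data known. Besides the 10 genes, those named by rule were USP35 and the 5 nearest profiles. In each further list the rule took the 3 lowest p and every gene higher in both doxycycline libraries. Any other gene of these lists, RNASEH2A and RNASEH2C included, was named after its values were seen. Alternatives varied the pseudocount, filter, scaling, model, block and libraries. Python 3.11.15 with pandas 2.3.3 and numpy 2.4.6 served for the tables.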

Additional observations from a re-analysis of the deposited data

How the results depend on the processing

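Of the 10 genes, the number lower in both doxycycline libraries was 9 under every alternative run except a mean of at least 5 FPKM, where 8 genes were tested and 7 were lower. For a gene still tested, a pseudocount, filter, block or left-out library cannot undo a separation of 2 against 2 libraries. Only the changes of scaling (quantile normalization, no mitochondrially encoded genes, limma-voom) could have done so. With 1 library left out, only the libraries that remained were compared. Their median log2 difference ranged from -1.15 to -0.93 when 1 library was left out and was -0.95 under quantile normalization. The number with an adjusted p under 0.05 was 4 of 8 where genes averaged 5 FPKM or more and 4 of 10 among protein-coding genes. It was 2 of 10 for limma-voom with sizes by median of ratios and 6 of 10 under the replicate block. It was 0 with a pseudocount of 0.1, without a filter, under quantile normalization, without mitochondrially encoded genes and with limma-voom on library totals. Over all genes these counts were 261, 242, 198 and 784 in the same order, and 0 to 3942 without 1 library. Among the further genes they were 6 of 20, 5 of 30, 4 of 30 and 7 of 30. Of the further genes, 12 were lower in both doxycycline libraries at a mean of at least 5 FPKM, where 20 were tested. The replicate numbers are shared by label only. The deviations of same-numbered libraries from their group means had a correlation of 0.207 across genes, and 2 pairs cannot show pairing. RFC1 had a log2 difference of -0.040 without doxycycline replicate 2, against 0.20 without doxycycline replicate 1, and was positive under the 12 other alternatives. No other direction changed among the 10 genes, USP35 and the 16 further genes named by rule. Apart from RFC1, all of these had groups that did not overlap, and the further ones were picked from these same data. Only a change of scaling could therefore have reversed a direction, so the unchanged directions are no measure of stability. The causes of these moves were not tested. With 1 library left out, the lone library of its group is assumed to vary like the others.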

Other observations

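RNASEH2A, the catalytic subunit of RNase H2, was the further gene that did not reach a mean of 1 FPKM. It held 13 and 4 reads in the doxycycline libraries and 12 and 6 reads in the untreated libraries, while its partner RNASEH2C held 276 and 250 reads with doxycycline and 451 and 388 reads untreated. Exons of THSD8 on the same strand cover 30.8% of the RNASEH2A exon length, and THSD8 stood below 1 FPKM in all 4 libraries.

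Pseudogenes named for the 10 genes numbered 6 in the tables (copies of PCNA, FEN1, RFC3 and RFC5), and 0 of them held a read in any library. How the authors treated reads that map to several places is not given in the sources used here.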
